A study of Mus musculus with 6 samples.

Results

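The 77 genes described here are long non-coding RNAs that carry small RNAs in their introns or exons, with a few well-known nuclear and cytoplasmic non-coding RNAs. They were taken by symbol from the 20499 genes of the count table, of which 5148 are typed as non-coding. By name, 30 are hosts of small nucleolar RNAs (snoRNAs; the SNHG genes with GAS5, ZFAS1 and DANCR) and 42 are microRNA hosts (symbols that begin MIR and end HG). Another 2 are RNAs retained in the nucleus, NEAT1 and MALAT1, and the last 3 are CYTOR, PVT1 and NORAD. The rule uses symbols and gene type and no expression value, although it was written with earlier results of these data known.

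The libraries were made from cells labelled as AML12, an immortalized normal hepatic line of the mouse. Both arms had 3 libraries, and in both the cells had spent 6 h at 1% oxygen without glucose or serum before a return to complete medium and normal air. The shControl arm (genotype label WT) received a control lentivirus and the shRNF11 arm (genotype label RNF11 knockdown) a lentivirus against RNF11, a RING-type ubiquitin ligase gene. Complete medium held 10% serum, insulin-transferrin-selenium and dexamethasone at 40 ng/mL in both arms. The sources used here do not give the shRNA sequences, the time from reoxygenation to harvest or whether replicates were separate cultures, so the p-values rest on spread between libraries that may be no more than technical. No library from cells kept in normal oxygen was analysed here.

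The gene identifiers are human: 0 of the 77 members has an Entrez number in the mouse RefSeq table. Of 16 hepatocyte markers, 11 were listed, with 113 reads among them in the 6 libraries together, and 0 had enough reads to be tested. Summed epithelial markers ranged from 3104 to 3233 CPM in shControl and from 3772 to 3899 CPM in shRNF11, where CPM is reads per 1000000 of the scaled library total. These arms were apart, and the keratin genes KRT7, KRT8 and KRT18 were 1.14-fold, 1.54-fold and 1.19-fold higher (edgeR adjusted p = 5.05e-11, 1.46e-25 and 2.42e-10), while CDH1 had 29 reads in all and was not tested. Summed markers of mesenchymal, endothelial and blood cells ranged from 113 to 138 CPM in shControl and from 102 to 129 CPM in shRNF11, so the summed arms overlapped. Within that list LUM was 2.37-fold higher (edgeR adjusted p = 3.51e-05), CD68 was 1.13-fold lower (edgeR adjusted p = 0.00857), and PECAM1, with 43 reads in all and not tested, had more reads in every shRNF11 library than in any shControl library. The part of these marker shifts in the values below was not tested. Roles given below are those of the human genes.

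A snoRNA host is transcribed as a spliced precursor. Its introns release snoRNAs, which guide methylation and pseudouridylation of ribosomal and spliceosomal RNA, while the remaining spliced exons are exported and in several hosts are destroyed by nonsense-mediated decay during translation. Many snoRNA hosts begin with a terminal oligopyrimidine tract, as ribosomal protein genes do, and some spliced products have functions of their own. A microRNA host is cut in the nucleus by DROSHA and DGCR8, so that the amount of the spliced host need not follow that of the microRNA. NEAT1 is the scaffold of paraspeckles and MALAT1 gathers at nuclear speckles, bodies rich in splicing factors. None (0) of the table's rows names a snoRNA or a microRNA itself, so the values refer to host transcripts and not to their small RNA products.

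Library depth ranged from 37485850 to 39045440 reads. RNF11 reads numbered 2050, 1926 and 1930 under the control virus and 573, 565 and 599 under the RNF11 virus, a 3.32-fold decrease (edgeR adjusted p = 3.48e-28). Replicate 1 of shRNF11 stood apart from the other two libraries of its arm on the second principal component of expression (-26.4 against 13.6 and 11.5). Counts of changed members are therefore also given without it.

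Of the 77 members, 60 had enough reads to be tested, and 28 of these changed between the arms at an adjusted p under 0.05 (edgeR quasi-likelihood test, Benjamini-Hochberg over all 13489 tested genes). In shRNF11 cells 12 were higher and 16 lower, and the median log2 fold change of the 60 was -0.11. Among all tested genes 32.1% changed, with 17.4% higher and 14.7% lower and a median of -0.01. Among the 1467 tested non-coding genes 13.7% changed, with 2.93% higher and 10.8% lower and a median of -0.20. Protein-coding genes changed in 34.4% of cases, with 19.2% higher and 15.2% lower. The share among the members, 46.7%, was thus above each of these backgrounds. The members also had more reads than most non-coding genes: 15 of the 60 were in the bottom quintile by expression, against 1101 of the 1467 non-coding genes. Of the 60 members, 36 had arms that were fully apart, as had 42.8% of all tested genes, 44.7% of the coding and 26.9% of the non-coding ones. Changes of at least 2-fold were seen in 2 of the 28, MIR210HG and MIR181A2HG.

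**Figure D1:**
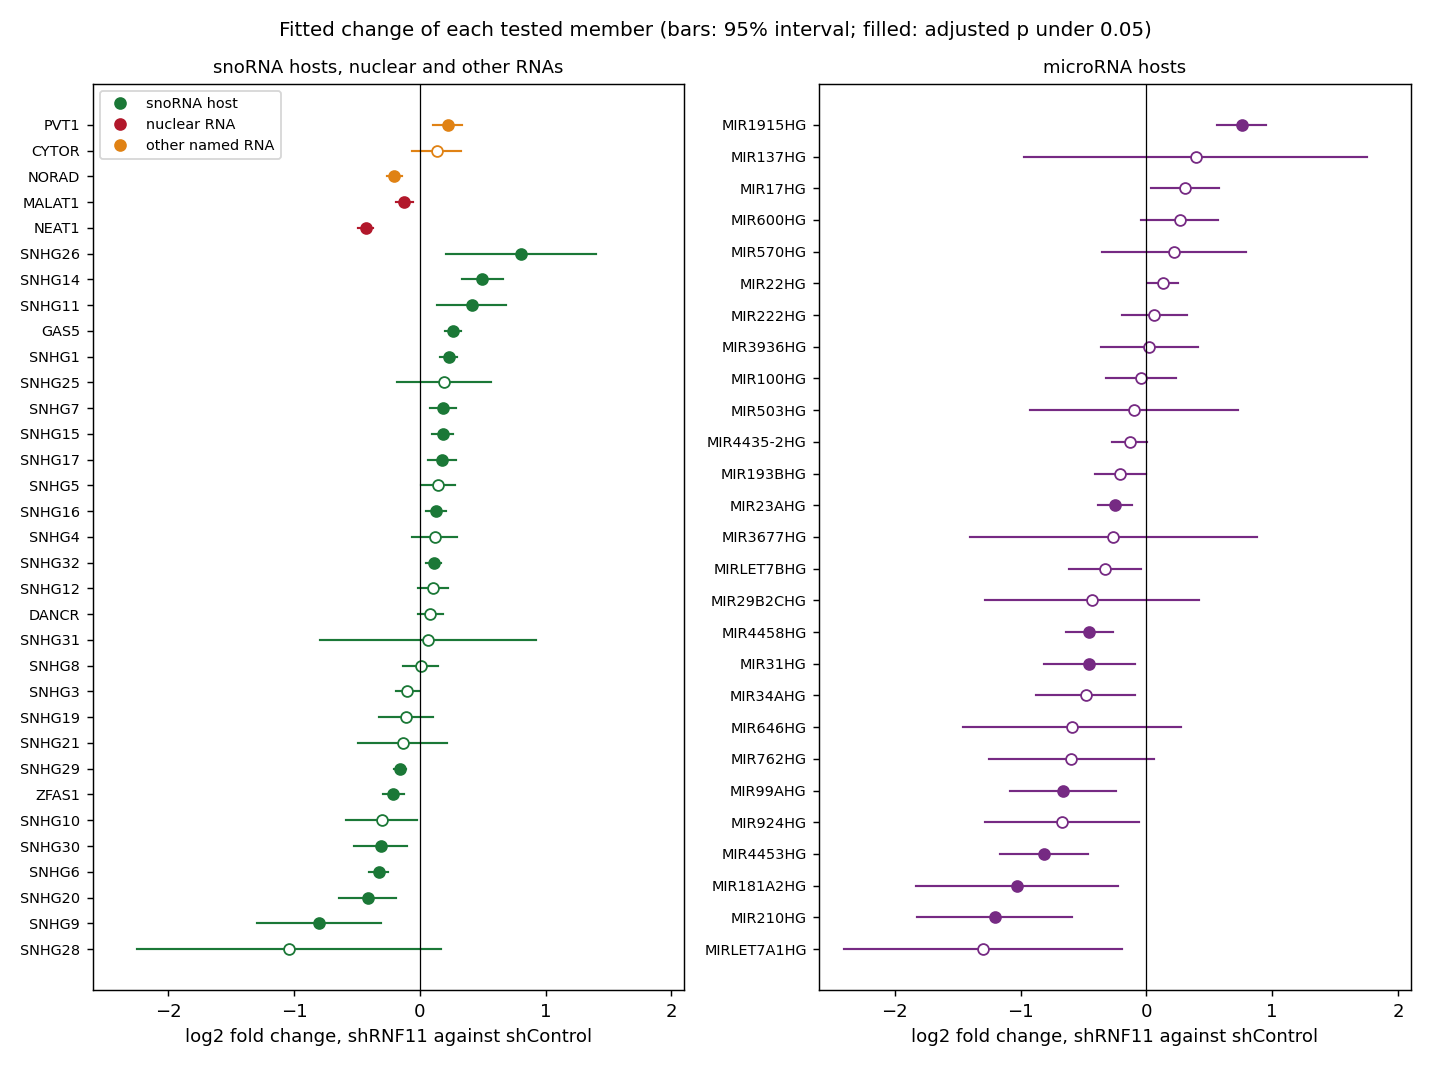
Fitted log2 fold change of each of the 60 tested members, shRNF11 against shControl (horizontal axis), with 95% intervals as bars; filled points passed an adjusted p of 0.05. The snoRNA hosts lie on both sides of 0, with 10 filled points to the right and 6 to the left, while 7 of the 8 filled points among microRNA hosts lie to the left.

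By class, of 28 tested snoRNA hosts, 10 were higher, 6 lower and 12 did not pass, with a median log2 fold change of 0.09. These shares, 35.7% and 21.4%, stand beside 17.4% and 14.7% of all tested genes and 2.93% and 10.8% of the non-coding ones. Of 27 tested microRNA hosts, 1 was higher (3.7%), 7 lower (25.9%) and 19 did not pass, with a median of -0.26. Of the 5 nuclear and other RNAs, 1 was higher (20%), 3 lower (60%) and 1 did not pass, too few genes for a share to be read. Without shRNF11 replicate 1 the counts were 9 higher and 5 lower for snoRNA hosts and 3 higher and 6 lower for microRNA hosts. Without shControl replicate 3, 6 snoRNA hosts were higher and 5 lower. The split depended on the scaling: with library totals in place of TMM factors, 6 snoRNA hosts were higher and 8 lower, 1 microRNA host was higher and 12 lower, and over all members 8 were higher and 23 lower.

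The classes lay in different ranges of expression. No microRNA host (0 of 27) reached the upper 2 quintiles of tested genes, whereas 12 of 28 snoRNA hosts did. In the top quintile all 11 members changed, 5 higher (GAS5, SNHG1, SNHG15, SNHG16 and SNHG32) and 6 lower (NEAT1, NORAD, MALAT1, SNHG6, SNHG29 and ZFAS1). Of all genes of that quintile 42.8% were higher and 12.9% lower, and its 15 non-coding genes, which include the 11, were 7 higher and 7 lower. In the bottom quintile, where a few reads decide a value, 1 of 15 members was higher and 3 were lower, against 3.3% and 5.89% of all genes there.

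**Figure D2:**
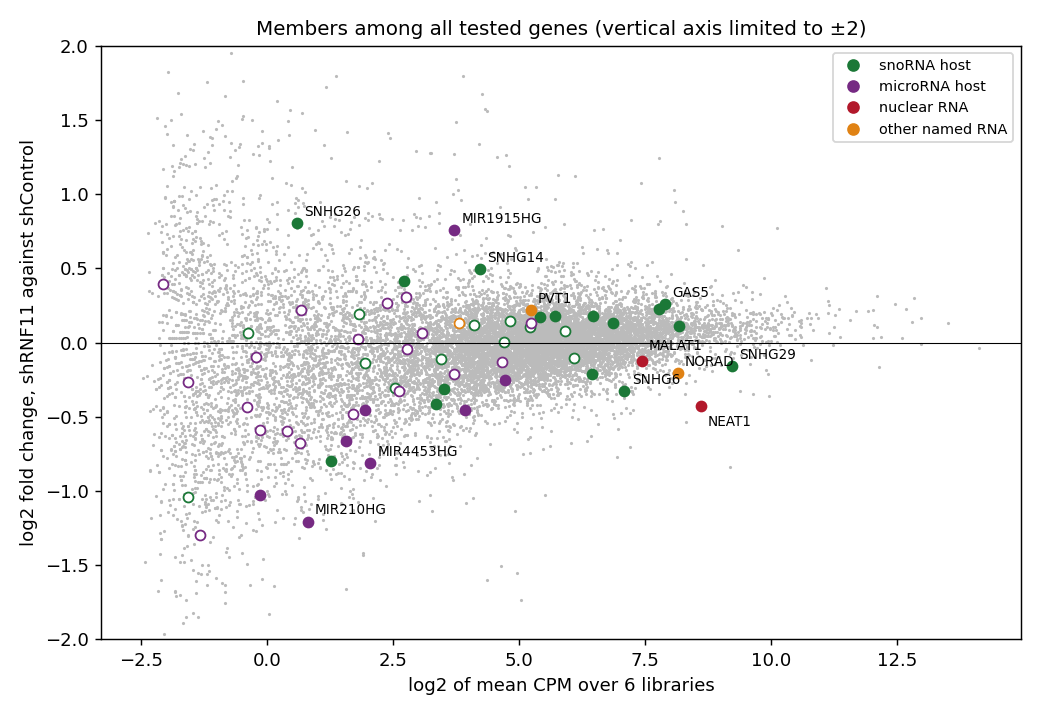
Log2 fold change (vertical axis, limited to ±2) against log2 mean CPM over the 6 libraries (horizontal axis) for all tested genes (grey) and the members (coloured by class; filled where the adjusted p was under 0.05). The 11 members with the highest expression are all filled, 5 above 0 and 6 below, and the microRNA hosts lie in the left and middle of the range.

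The snoRNA hosts that rose included GAS5 and SNHG1, both classical hosts of several box C/D snoRNAs. GAS5 accumulates in cells whose growth or translation is halted, and its spliced RNA can bind the glucocorticoid receptor. It stood at 212, 223 and 213 CPM in shControl and at 245, 268 and 264 CPM in shRNF11. Every shRNF11 library lay above every shControl library, a 1.2-fold difference (log2 fold change 0.26, SE 0.0323, edgeR adjusted p = 4.82e-09). SNHG1, which lies beside the amino acid transporter gene SLC3A2, had 193, 213 and 197 CPM in shControl and 229, 239.8 and 238 CPM in shRNF11. It was 1.17-fold higher with no overlap (SE 0.0332 on the log2 scale, edgeR adjusted p = 1.98e-07).

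SNHG14 showed a larger rise at a lower expression. It is the long imprinted transcript that hosts the SNORD115 and SNORD116 families and runs antisense to UBE3A. Its libraries held 15.1, 14.6 and 16.8 CPM in shControl and 22.8, 21.4 and 21.5 CPM in shRNF11, which was 1.41-fold higher with the arms well apart (log2 fold change 0.50, SE 0.0819, edgeR adjusted p = 3.01e-06). SNHG11, the host of SNORA60, had 5.73, 6.23 and 4.96 CPM against 7.48, 6.86 and 8.18 CPM and was 1.33-fold higher (edgeR adjusted p = 0.0158). This call was lost without shControl replicate 3 (0.103) or shRNF11 replicate 3 (0.0737).

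SNHG26 had the highest fold change of the snoRNA hosts and the fewest reads among those that changed. Reads numbered 42, 43 and 42 in shControl and 73, 75 and 69 in shRNF11. These libraries did not overlap and the fitted difference was 1.75-fold (log2 fold change 0.80, SE 0.296, edgeR adjusted p = 0.0323). Leaving out any 1 of the 6 libraries ended the call, with adjusted p from 0.0511 to 0.0807, while the log2 fold change stayed between 0.79 and 0.84.

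The other 5 hosts that rose did so by 1.08-fold to 1.13-fold. SNHG7, which hosts SNORA17 and SNORA43, averaged 49.0 ± 1.81 CPM in shControl and 55.6 ± 2.15 CPM in shRNF11 (SD, n = 3 each; edgeR adjusted p = 0.00404). SNHG15, the host of SNORA9, averaged 82.9 ± 1.51 CPM and 93.9 ± 5.70 CPM (edgeR adjusted p = 7.26e-04). SNHG17, a host of SNORA71 copies, averaged 40.3 ± 1.87 CPM and 45.4 ± 1.97 CPM (edgeR adjusted p = 0.0128). In these hosts the arms did not overlap. SNHG32 averaged 278 ± 3.16 CPM and 299.96 ± 12.7 CPM with no overlap (edgeR adjusted p = 0.00329). SNHG16, a host of SNORD1 copies, averaged 111 ± 5.69 CPM and 122 ± 4.67 CPM with overlapping arms (edgeR adjusted p = 0.00901).

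Several of these small rises rested on the scaling or on 1 library. With library totals alone the adjusted p was 0.066 for SNHG7, 0.128 for SNHG17, 0.21 for SNHG16 and 0.241 for SNHG32. SNHG16 was also lost without shControl replicate 3 (adjusted p = 0.117), and SNHG17 without that library (0.081) or without shRNF11 replicate 3 (0.0721).

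Among the snoRNA hosts that fell, SNHG6, the host of SNORD87, had the smallest p. Its libraries held 154, 151 and 151 CPM in shControl and 116, 128 and 119 CPM in shRNF11, a 1.26-fold decrease (log2 fold change -0.33, SE 0.0367, edgeR adjusted p = 3.15e-10). All shRNF11 libraries lay well below the shControl libraries. SNHG29, the host with the most reads of any member, hosts SNORD49 and SNORD65 copies. It had 633, 640.2 and 625 CPM against 550.1, 581 and 569.5 CPM and was 1.12-fold lower with no overlap (SE 0.0252, edgeR adjusted p = 1.42e-06). ZFAS1 hosts the SNORD12 family and begins beside the start of ZNFX1 on the opposite strand. It had 92.3, 93.5 and 94.3 CPM against 79.1, 81.3 and 81.7 CPM and was 1.16-fold lower with no overlap (SE 0.0404, edgeR adjusted p = 4.33e-05).

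The other snoRNA hosts that fell had fewer reads. SNHG20, which hosts a small Cajal body RNA, had 12.4, 10.7 and 11.98 CPM in shControl and 7.91, 8.31 and 10.1 CPM in shRNF11, 1.33-fold lower with no overlap (edgeR adjusted p = 0.00324). SNHG30 averaged 12.7 ± 0.950 CPM and 10.2 ± 0.771 CPM (SD, n = 3 each; 1.24-fold lower, edgeR adjusted p = 0.0181). SNHG9, the host of SNORA78, had 3.51, 2.01 and 3.67 CPM against 1.69, 2.08 and 1.503 CPM and was 1.74-fold lower (edgeR adjusted p = 0.00914). The arms of SNHG9 overlapped because shControl replicate 2 lay among the shRNF11 values. The call on SNHG9 was lost without shControl replicate 1 (adjusted p = 0.0666) or 3 (0.0785), and that on SNHG30 without shControl replicate 1 (0.12) or shRNF11 replicate 1 (0.0887).

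**Figure D3:**
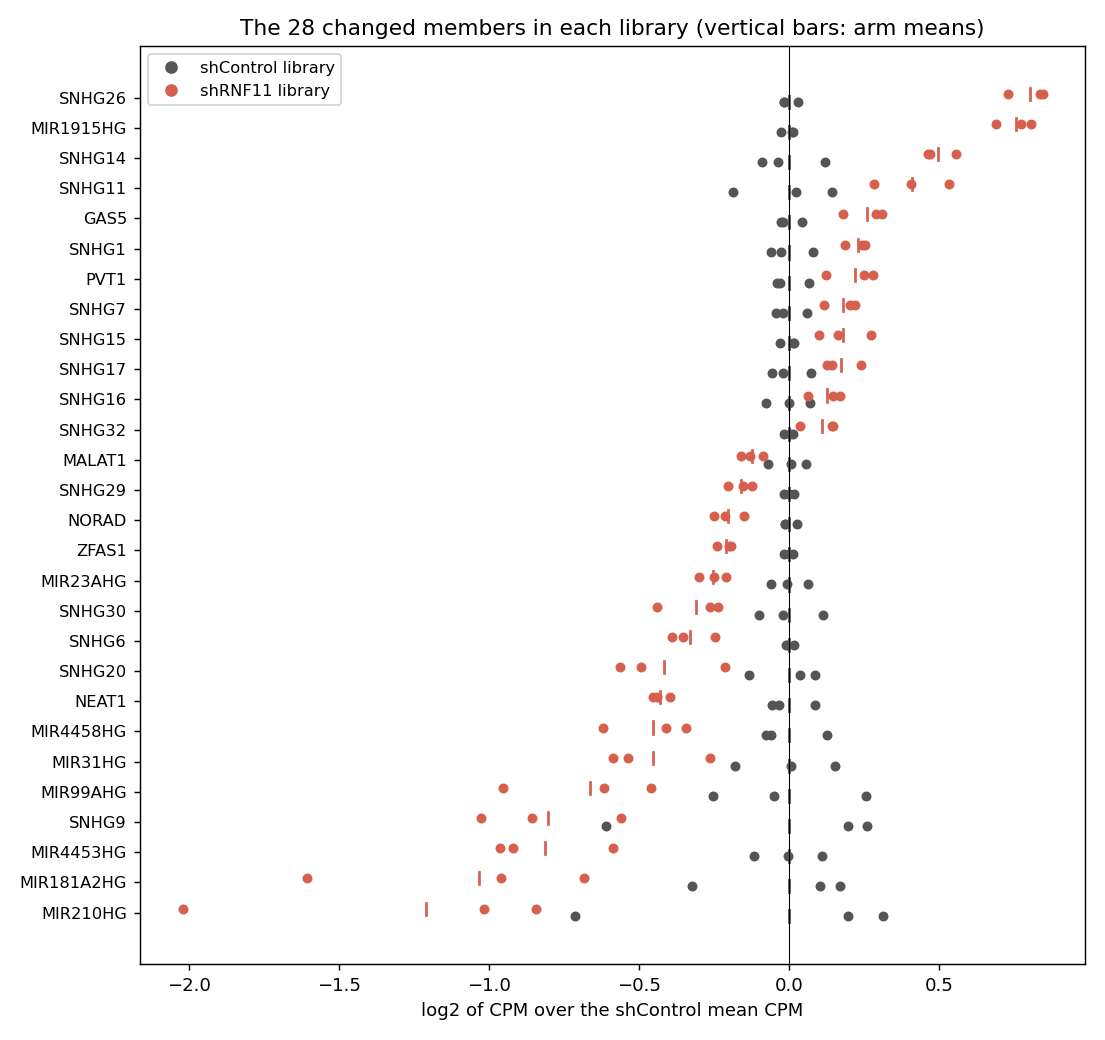
The 28 changed members in each library, as log2 of CPM over the gene's shControl mean (horizontal axis); grey points are shControl libraries, red points shRNF11 libraries and short vertical bars the arm means. The arms are apart for all but SNHG16 and SNHG9, and the low-read genes at the bottom (MIR210HG, MIR181A2HG, SNHG9) spread most between replicates.

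The 12 tested snoRNA hosts that did not pass had log2 fold changes from -1.04 to 0.19 and adjusted p of at least 0.0785. DANCR, an RNA that also hosts SNORA26 and is known for holding back differentiation, had 60.9, 59.5 and 55.02 CPM in shControl and 59.8, 65.6 and 60.2 CPM in shRNF11. The arms overlapped and the 95% interval of its log2 fold change ran from -0.02 to 0.18 (edgeR adjusted p = 0.219). SNHG8 had an interval from -0.13 to 0.14 around a log2 fold change of 0.00 and SNHG12 one from -0.01 to 0.22; both were picked after their values were seen. Those with the largest fitted values were SNHG28 (log2 fold change -1.04, 95% interval -2.25 to 0.17, 78 reads in all), SNHG10 (-0.30), SNHG25 (0.19) and SNHG5 (0.14). SNHG10 passed with library totals alone (adjusted p = 0.0377) and SNHG5 without shControl replicate 2 (0.0411). Another 2 hosts had too few reads to be tested, SNHG18 with 1 read and SNHG22 with 15 over the 6 libraries.

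Summed over the class, snoRNA hosts took 2139 to 2197 CPM in the shControl libraries and 2124 to 2254 CPM in the shRNF11 libraries. The arms overlapped, and the total thus covers members that rose and members that fell. Without strand information, reads of ZFAS1, SNHG14 and other hosts that lie opposite or across another gene cannot be told from reads of that gene.

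Most tested microRNA hosts did not pass the test, and those that fell made up 25.9% of them, against 10.8% of tested non-coding genes. Of the 27 hosts, 11 lay in the bottom quintile of expression, 13 in the next and 3 in the middle one. In these quintiles 5.63%, 22.8% and 37.3% of tested non-coding genes were lower, so the 10.8% is not a background of like expression. Fitted values were negative for 19 of 27, which is close to the 985 of 1467 among all tested non-coding genes. The microRNA host that rose was MIR1915HG, with 9.60, 9.88 and 9.86 CPM in shControl and 17.1, 16.7 and 15.8 CPM in shRNF11. Replicates were close and the arms far apart, a 1.69-fold difference (log2 fold change 0.76, SE 0.0961, edgeR adjusted p = 9.25e-09). It was the only microRNA host that rose in the main fit; without shRNF11 replicate 1 there were 3.

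MIR210HG, the host of the hypoxia-induced microRNA of that number, is transcribed under hypoxia-inducible factors. Its libraries held 58, 117 and 109 reads in shControl and 51, 23 and 46 in shRNF11, or 1.497, 3.05 and 2.81 CPM against 1.37, 0.604 and 1.21 CPM. The arms did not overlap, although shControl replicate 1 lay close to shRNF11 replicate 1. The fitted difference was 2.31-fold (log2 fold change -1.21, SE 0.308, edgeR adjusted p = 0.00174), and the call held in all 13 alternatives, with log2 fold changes from -1.46 to -0.92.

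MIR4453HG and MIR4458HG, named for microRNAs in or next to them, also fell. MIR4453HG had 5.27, 4.88 and 5.71 CPM in shControl and 2.71, 3.52 and 2.79 CPM in shRNF11, 1.75-fold lower with no overlap (SE 0.174 on the log2 scale, edgeR adjusted p = 2.17e-04). MIR4458HG had 16.9, 19.2 and 16.6 CPM against 11.4, 13.8 and 13.2 CPM, 1.37-fold lower with no overlap (SE 0.0932, edgeR adjusted p = 1.27e-04). Both are clear of the shControl range in every shRNF11 library. MIR23AHG, the host of the miR-23a, miR-27a and miR-24-2 cluster, had 27.5, 30.1 and 28.6 CPM against 23.3, 24.9 and 24.2 CPM and was 1.19-fold lower with no overlap (SE 0.0677, edgeR adjusted p = 0.00291).

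The remaining microRNA hosts that fell passed by less. MIR99AHG, the long host of miR-99a and let-7c, averaged 3.66 ± 0.663 CPM in shControl and 2.31 ± 0.391 CPM in shRNF11 (SD, n = 3 each; 1.58-fold lower, edgeR adjusted p = 0.0120). The call was lost without shControl replicate 2 (adjusted p = 0.115) or shRNF11 replicate 2 (0.081). MIR31HG, known in human cells for acting on the CDKN2A locus, averaged 4.47 ± 0.515 CPM and 3.27 ± 0.407 CPM (1.37-fold lower, edgeR adjusted p = 0.0465). It did not pass in DESeq2 (0.0508), limma-voom (0.0623) or without a filter on low counts (0.0633), nor without shControl replicate 1 (0.0975) or 2 (0.19) or shRNF11 replicate 1 (0.108) or 3 (0.131). MIR181A2HG, with 15 to 53 reads per library, was 2.04-fold lower (edgeR adjusted p = 0.0433), and its adjusted p was 0.134 and 0.116 without shControl replicate 2 or 3 and 0.151 and 0.0735 without shRNF11 replicate 1 or 2.

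The 19 tested microRNA hosts that did not pass had log2 fold changes from -1.30 to 0.39. Those with the largest fitted values were MIRLET7A1HG (log2 fold change -1.30, 95% interval -2.40 to -0.19, edgeR adjusted p = 0.0645), MIR924HG (-0.67, adjusted p = 0.0855), MIR762HG (-0.60, 0.165) and MIR646HG (-0.59, 0.315). MIRLET7A1HG passed with library totals alone (0.0495) and MIR924HG without shControl replicate 2 (0.0489). MIR34AHG, the host of miR-34a, averaged 3.82 ± 0.675 CPM and 2.74 ± 0.278 CPM (adjusted p = 0.0540). MIR17HG, the host of the MYC-driven miR-17-92 cluster, averaged 6.03 ± 0.318 CPM and 7.46 ± 0.781 CPM (adjusted p = 0.0704). Both were chosen after their values were seen, and in both genes the arms did not overlap.

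MIR22HG, the microRNA host with the most reads, had 37.1, 34.2 and 37.7 CPM in shControl and 37.6, 41.9 and 39.9 CPM in shRNF11. The arms overlapped, with a 95% interval of the log2 fold change from 0.01 to 0.25 (edgeR adjusted p = 0.0808); it too was chosen after its values were seen. For MIR100HG the interval ran from -0.32 to 0.23 and for MIR222HG from -0.20 to 0.32, so changes of about those sizes could not be detected; both were picked after their values were seen. Another 15 microRNA hosts had 1 to 27 reads in all 6 libraries together and were not tested, 12 of them with fewer than 10.

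Summed over the class, microRNA hosts took 198 to 202 CPM in the shControl libraries and 182 to 194 CPM in the shRNF11 libraries, with no overlap. Without scaling, microRNA hosts took 0.0202 to 0.0206% of reads in shControl and 0.0178 to 0.0189% in shRNF11. All non-coding genes together took 0.959 to 0.977% of unscaled reads in shControl and 0.873 to 0.880% in shRNF11, again with no overlap. That share includes the members, which took 0.339 to 0.349% in shControl and 0.305 to 0.317% in shRNF11. The lower share of the microRNA hosts thus went along with a lower share of non-coding reads. The part of that shift in each member's change was not tested.

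NEAT1, the scaffold RNA of paraspeckles, had the smallest p of all members. Its libraries held 437, 475 and 429.7 CPM in shControl and 327, 329 and 339 CPM in shRNF11. All shRNF11 libraries lay far below the shControl range, a 1.35-fold decrease (edgeR adjusted p = 5.54e-17 at a log2 fold change of -0.43 with an SE of 0.0298). The count table gives 1 value for the gene, so its short and long isoforms cannot be told apart. Whether the libraries were made from polyadenylated RNA or by depletion of ribosomal RNA was not stated, and this bears on how the long isoform is sampled.

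MALAT1, its neighbour on the chromosome, changed much less. It had 173, 188 and 182 CPM in shControl and 171, 162 and 166 CPM in shRNF11, a 1.09-fold decrease (edgeR adjusted p = 0.00400 at a log2 fold change of -0.12 with an SE of 0.0345). The arms were barely apart, since 1 shControl library (173) lay next to 1 shRNF11 library (171). The call was lost without shControl replicate 2 (adjusted p = 0.0622). The 95% intervals of the 2 genes, -0.49 to -0.37 for NEAT1 and -0.19 to -0.05 for MALAT1, did not meet, and the difference between them was not tested.

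Genes of paraspeckle proteins were higher while NEAT1 was lower. All 12 listed genes rose (100% of the list, against 17.4% of all tested genes), with a median log2 fold change of 0.18, and the arms did not overlap for any of them. SFPQ, which with NONO and PSPC1 forms the DBHS core proteins of the paraspeckle, averaged 563 ± 4.65 CPM in shControl and 686 ± 19.7 CPM in shRNF11 (SD, n = 3 each; 1.22-fold, edgeR adjusted p = 2.04e-13). TARDBP, which encodes the RNA-binding protein TDP-43, was 1.246-fold higher (edgeR adjusted p = 6.51e-13) and HNRNPK 1.14-fold higher (edgeR adjusted p = 2.23e-09). Most of these genes are highly expressed, and 42.8% of all genes in the top quintile of expression were higher. With library totals alone 9 of the 12 were higher.

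Nuclear speckle proteins, the partners of MALAT1, went both ways. Of 14 genes, 4 were higher, 2 lower and 8 did not pass, with a median log2 fold change of 0.00. The 28.6% that were higher compare with 17.4% of all tested genes and 42.8% of the top quintile, and the 14.3% that were lower with 14.7% and 12.9%. The splicing factor gene SRSF1 was 1.22-fold higher (edgeR adjusted p = 2.38e-14), SRSF5 1.18-fold lower (edgeR adjusted p = 4.57e-07) and SRSF7 1.08-fold higher (edgeR adjusted p = 0.00185). SON and SRRM2, the proteins that build the speckle core, had log2 fold changes of 0.00 each, with adjusted p of 0.983 and 0.980, and were chosen after their values were seen. Without shControl replicate 3, or without shRNF11 replicate 2, 3 of the 14 changed.

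NORAD, an abundant cytoplasmic RNA that binds the PUMILIO proteins and guards chromosome number, fell. Its libraries held 301.1, 301.2 and 309.9 CPM in shControl and 262, 256 and 274 CPM in shRNF11, with no overlap, a 1.15-fold decrease (log2 fold change -0.20, SE 0.0297, edgeR adjusted p = 2.49e-07). PUM2, the gene of such a partner, had 128 ± 3.71 CPM and 127 ± 2.62 CPM (edgeR adjusted p = 0.825).

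PVT1, which lies next to MYC and carries a cluster of microRNAs, rose. It had 34.0, 36.3 and 33.7 CPM in shControl and 37.8, 42.2 and 41.2 CPM in shRNF11, 1.16-fold higher with no overlap (log2 fold change 0.22, SE 0.0586, edgeR adjusted p = 0.00272). MYC averaged 458 ± 5.97 CPM in shControl and 555 ± 5.82 CPM in shRNF11 (SD, n = 3 each), 1.21-fold higher with an edgeR adjusted p of 6.69e-13.

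CYTOR, a cytoplasmic RNA tied to the actin cytoskeleton, and MIR4435-2HG are near-identical copies on the same chromosome, and reads may be split between them. CYTOR had 13.2, 12.1 and 14.8 CPM in shControl and 14.5, 16.2 and 13.4 CPM in shRNF11, and MIR4435-2HG had 27.1, 24.98 and 28.1 CPM against 24.6, 25.4 and 23.0 CPM. Both pairs of arms overlapped (edgeR adjusted p = 0.308 and 0.144), with fitted values of opposite sign (log2 fold change 0.13 and -0.13). Counted as 1 gene, they had a log2 fold change of -0.04 (edgeR adjusted p = 0.665).

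Hosts that adjoin or overlap a coding gene could be set beside it. GAS5 and ZBTB37, a zinc finger gene that starts from the opposite strand, were both higher (ZBTB37 log2 fold change 0.29, edgeR adjusted p = 0.00700), as were SNHG1 and SLC3A2 (0.06, edgeR adjusted p = 0.0438) and PVT1 and MYC. MIR23AHG and ZSWIM4 were both lower, with ZSWIM4 1.42-fold lower (edgeR adjusted p = 8.68e-08). SNHG9 and its neighbour RPS2, a ribosomal protein gene, went opposite ways, with RPS2 1.14-fold higher (edgeR adjusted p = 2.14e-10).

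Elsewhere the host changed and the coding gene did not pass. ZNFX1 had a log2 fold change of -0.05 beside the fall of ZFAS1 (edgeR adjusted p = 0.347), UBE3A -0.05 beside the rise of SNHG14 (0.383), RALGAPB -0.03 beside the rise of SNHG11 (0.678), and PHRF1 0.01 beside the fall of MIR210HG (0.846). The converse held for RCC1, which overlaps SNHG3 and was 1.18-fold higher, MATR3, which overlaps SNHG4 and was 1.15-fold higher, and GLRX5, which adjoins SNHG10 and was 1.10-fold lower. SNHG3 itself had 71.4, 72.4 and 68.0 CPM against 66.1, 66.2 and 65.3 CPM, and was named after its values were seen, with a log2 fold change of -0.10 and no overlap (edgeR adjusted p = 0.0785). Neither gene passed in the pairs SNHG12 with TRNAU1AP and MIR22HG with WDR81.

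**Figure D4:**
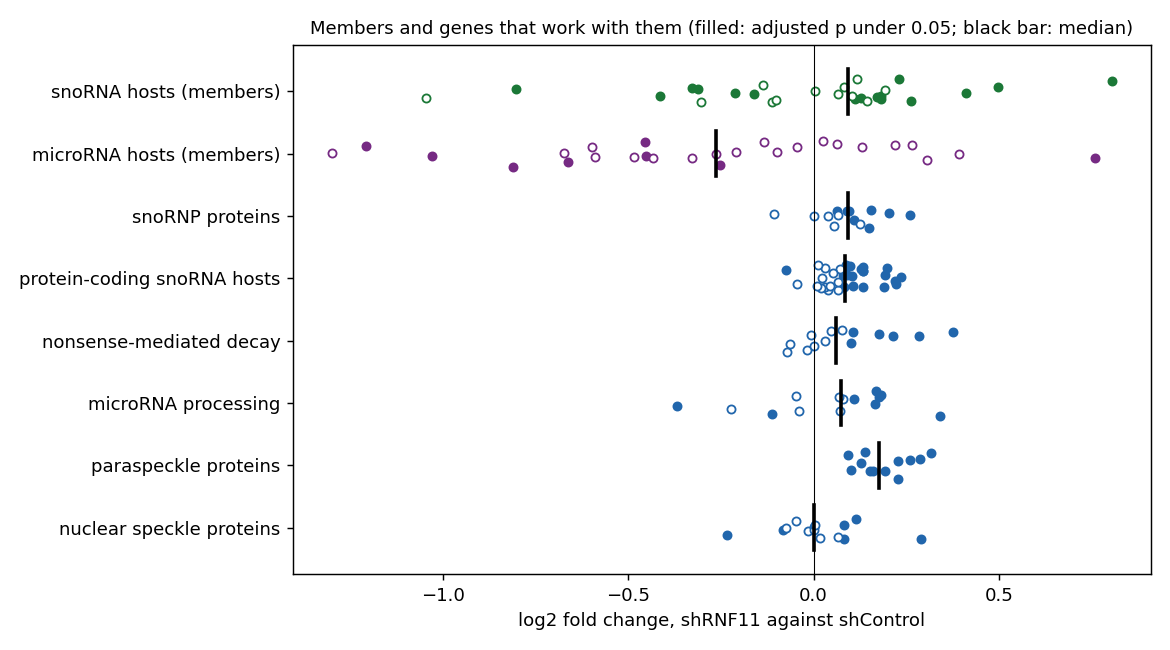
Log2 fold changes, shRNF11 against shControl (horizontal axis), of the tested snoRNA and microRNA hosts and of 6 lists of coding genes that work with them; each point is a gene, filled where the adjusted p was under 0.05, and black bars are medians. The non-coding hosts spread from below -1.0 to about 0.8, the coding lists stay within about 0.4 of 0, and all 12 paraspeckle genes lie to the right. The ends of the non-coding spread are genes with few reads (MIRLET7A1HG with 92 in all and SNHG26 with 344).

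Of 33 tested coding genes that host snoRNAs in their introns, 19 were higher and 1 lower, with a median log2 fold change of 0.09. That is 57.6% higher, against 17.4% of all tested genes and 42.8% of those in the top quintile of expression. NCL, which encodes nucleolin, was 1.15-fold higher (edgeR adjusted p = 1.93e-11), from 2079.8 ± 14.1 CPM in shControl to 2386 ± 50.4 CPM in shRNF11 (SD, n = 3 each). The ribosomal protein genes RPSA and RPL23 were 1.17-fold and 1.18-fold higher. EIF4A2, a translation helicase gene and the 1 that was lower, was 1.05-fold lower (edgeR adjusted p = 0.0446). Fitted values ran from -0.08 to 0.23 in this list and from -1.04 to 0.80 in the non-coding hosts. These widths are not at like read depth, as the median shControl CPM was 674 in the list and 26.5 in the non-coding hosts. The ends of the wider range, SNHG28 and SNHG26, had 78 and 344 reads in all and SEs of 0.60 and 0.296. Non-coding hosts of the top quintile ran from -0.33 (SNHG6) to 0.26 (GAS5). With library totals alone 11 of the 33 changed. Reads of ribosomal protein genes can also fall on their pseudogenes.

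Of 14 genes of proteins that bind snoRNAs (snoRNP genes), 8 were higher and 0 lower (median log2 fold change 0.09). The share higher was 57.1%, against 17.4% of all tested genes and 42.8% in the top quintile. FBL, the methyltransferase of box C/D particles, averaged 182 ± 0.929 CPM in shControl and 218 ± 3.38 CPM in shRNF11 (SD, n = 3 each), 1.2-fold higher with an edgeR adjusted p of 2.56e-09. The assembly helicase gene RUVBL1 and the box H/ACA protein gene NHP2 were each 1.11-fold higher. The number changed was 3 with library totals alone, 5 without shControl replicate 1 and 4 without shControl replicate 3.

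Nonsense-mediated decay, the route that removes the spliced RNA of several snoRNA hosts, had 6 of 14 genes higher and 0 lower (median log2 fold change 0.06). This share, 42.9%, stands beside 17.4% of all tested genes and 42.8% of the top quintile. In the next quintile down 21.2% were higher, and 13.4% in the one below that. The 14 genes were not all in the top quintile, and the genes named next lay below it. UPF3B was 1.30-fold higher (36.3 ± 2.40 CPM against 47.1 ± 1.03 CPM; edgeR adjusted p = 4.01e-07), SMG9 1.22-fold (edgeR adjusted p = 1.57e-05) and UPF2 1.16-fold (edgeR adjusted p = 3.68e-04). UPF1, the helicase at its centre, had a log2 fold change of 0.08 (edgeR adjusted p = 0.0587) and was chosen after its values were seen. The number changed was 4 without shControl replicate 1 and 4 without shRNF11 replicate 1.

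The microRNA machinery had 6 of 14 genes higher and 2 lower (median log2 fold change 0.08). These shares, 42.9% and 14.3%, stand beside 17.4% and 14.7% of all tested genes and 42.8% and 12.9% in the top quintile. Some of the 14, such as TNRC6B and AGO4, lay below the top quintile. In the quintiles next below it 21.2%, 13.4% and 6.3% were higher and 17.6%, 18.8% and 18.5% lower. RAN, the export GTPase, was 1.12-fold higher (edgeR adjusted p = 9.67e-08), AGO2, the Argonaute that cleaves its targets, 1.14-fold (edgeR adjusted p = 2.64e-05) and TNRC6B, a silencing cofactor, 1.27-fold (edgeR adjusted p = 0.00104). The 2 that fell were DICER1, which makes mature microRNAs from hairpins (1.08-fold, edgeR adjusted p = 0.0218), and AGO4 (1.29-fold, edgeR adjusted p = 0.0145), named after their values were seen. DROSHA and DGCR8 had adjusted p of 0.268 and 0.491. The number changed was 4 without shControl replicate 1 and 5 without shControl replicate 3.

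Genes of transcription factors known to act on some of these hosts also differed. Of 11 regulators and binding partners, 2 were higher, 4 lower and 5 did not pass. These shares, 18.2% and 36.4%, stand beside 17.4% and 14.7% of all tested genes. HIF1A was 1.35-fold higher, from 793 ± 7.28 CPM in shControl to 1070.4 ± 21.9 CPM in shRNF11 (SD, n = 3; edgeR adjusted p = 2.12e-21), while EPAS1, which encodes HIF-2 alpha and is known to drive NEAT1 in hypoxia, was 1.24-fold lower, at 172 ± 6.11 CPM against 214 ± 4.5 CPM (edgeR adjusted p = 5.08e-11). E2F1, a cell cycle regulator, was 1.23-fold lower (edgeR adjusted p = 5.46e-06). RELA and NFKB1 had log2 fold changes of 0.04 and 0.07 that did not pass. E2F1, RELA and NFKB1, like PUM2, EIF4A2, DROSHA and DGCR8 above, were named after their values were seen. These are transcript amounts, and a relation between any regulator and a host was not tested.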

How the data were processed

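For the 6 libraries the authors deposited counts of reads by gene without normalization. The submitters' processing notes list fastp, HISAT2 and HTSeq with neither version nor role. Build, annotation, strand setting and poly(A) selection were not stated. The labels say mouse while the identifiers are human (0 of 20499 Entrez numbers matched the mouse RefSeq table), so no coordinates or sequences are printed. Members and gene lists were chosen with earlier results of these data known. Genes were filtered with filterByExpr (minimum count 10), scaled with TMM factors and compared with the quasi-likelihood test of edgeR 4.0.16 (R 4.3.3), group as sole term, 2-sided, Benjamini-Hochberg over all 13489 tested genes. Changed means an adjusted p under 0.05. The SE of a log2 fold change was its size divided by the square root of F, and 95% intervals use the test's degrees of freedom. CPM is relative to the TMM-scaled library total and is not divided by gene length. Quintiles of expression rank genes by mean log2 CPM, so they also reflect gene length. The biological coefficient of variation was 4.82%. The fit was tested on simulated data. Replicates were no duplicates: chi-square per gene was 3.79 to 5.85 within and 21.4 to 23.8 between arms. Named are RNF11, all changed members, the 8 members with names of their own, up to 4 tested members per class that did not change, with the largest fold changes, and up to 3 changed genes per list. EIF4A1 and 5 hepatocyte markers were not analysed here, and some genes of the lists are not reported here. Alternatives were other scalings, no filter, DESeq2 1.42.0, limma-voom (limma 3.58.1), the replicate number as a block and each library left out.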

Additional observations from a re-analysis of the deposited data

How the results depend on the processing

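Under the alternatives tried, no member named by rule changed direction: 457 of their values stayed on their side of the threshold, 33 lost and 4 gained the call. That rule takes changed members, the 8 with names of their own and unchanged ones with large fold changes. Members with fitted values nearest 0, such as SNHG8, were not followed, so a steady direction was favoured by the choice. With library totals alone 13 microRNA hosts, 11 coding snoRNA hosts and 3 snoRNP genes changed, and the median log2 fold change was 0.0286 for snoRNA hosts and -0.33 for microRNA hosts. The latter was -0.28 with upper-quartile factors, -0.17 without a filter (more low-count genes enter), -0.31 with limma-voom and -0.29 with the replicate block. Leaving out 1 library at a time gave medians of 0.0337 to 0.112 for snoRNA hosts and -0.30 to -0.23 for microRNA hosts, 4 to 8 changed snoRNP genes, 4 to 7 of the microRNA machinery and 3 to 6 of the speckle list. In these leave-one-out fits CYTOR plus MIR4435-2HG ranged from -0.0909 to 0.015 (-0.103 with library totals alone) and turned positive without replicate 3 of shControl (0.0119) or of shRNF11 (0.015). Apart from the no-filter median, the cause of these moves was not tested. Same-numbered libraries of the arms did not deviate together (correlations -0.0159, -0.00586 and -0.00714). This shows no shared shift, but cannot tell whether they were prepared together, which the labels do not say. With the replicate block 12 members were higher and 16 lower. Of calls over all genes 54.2% were higher, against 29.1% with library totals and 46.4% with upper-quartile factors. Few reads limit the low-count hosts: the standard error reached 0.68 on the log2 scale.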
